A study of Mus musculus with 17 samples.

Results

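Apoe, Trem2, Fabp4, Fabp5, Cd36, Lpl, Abca1, Plin2 and Gpnmb are 9 genes with which macrophages and other cells take up, carry, store and release lipid. They were chosen by name, without a threshold on any level, but with earlier results of these data known. The set makes up 9 of the 30406 genes listed in all 17 libraries of a single-cell RNA sequencing series from mouse skin and kidney. Levels are given as CPM, the UMIs of a gene divided by all UMIs of the same cells and scaled to 1000000, so that they compare the same gene between samples and not one gene with another.

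GFP+ cells were sorted from PDGFRb-Cre Z/EG mice of 8 weeks and profiled with 10x Genomics 3′ chemistry. All groups carried the Cre and the reporter, and SARATg mice also carried a human ZFYVE9 cDNA (which encodes SARA) behind a CAG promoter and a lox-stop-lox cassette at Rosa26. In skin there were 3 libraries of SARAWT mice given PBS, 3 of SARAWT mice given bleomycin, 1 of SARATg mice given PBS and 1 of SARATg mice given bleomycin. Per the labels, bleomycin was given under the skin at 20 mg/kg, 3 times a week for 2 weeks. In kidney there were 3 libraries of SARAWT mice given vehicle, 3 of SARAWT mice given aristolochic acid, 2 of SARATg mice given vehicle and 1 of SARATg mice given aristolochic acid. Aristolochic acid, a plant toxin of the proximal tubule, was injected into the peritoneum at 5 mg/kg, 3 times a week for 3 weeks. The Cre is constitutive, so GFP marks any cell with a history of the promoter's activity, and many of the sorted cells were leukocytes.

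Macrophages that take up lipid use scavenger receptors such as CD36 for fatty acids and modified lipoproteins, and TREM2 as a surface sensor of lipids and apolipoproteins. Fatty acids are carried inside the cell by FABP4 and FABP5 and stored in droplets that PLIN2 coats, while ABCA1 hands cholesterol out to acceptors such as apolipoprotein E. LPL, lipoprotein lipase, frees fatty acids from triglyceride in circulating particles, and GPNMB is a glycoprotein of lysosomes and melanosomes seen in macrophages loaded with lipid. Outside macrophages, Fabp4 and Cd36 are known for capillary endothelium and fat, Fabp5 for keratinocytes and Gpnmb for melanocytes.

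The genes lie apart in the genome (GRCm38), with Apoe at chr7:19696109-19699188, Trem2 at chr17:48346401-48354147, Cd36 at chr5:17781690-17888801, Lpl at chr8:68880491-68907448 and Gpnmb at chr6:49036546-49070929. Abca1 at chr4:53030787-53159895 and Plin2 at chr4:86648386-86670060 share a chromosome, and Fabp4 at chr3:10204088-10208576 and Fabp5 at chr3:10012548-10016607 are near neighbours of the same family. The promoter set used, drawn from RefSeq (GRCm38.p6, from 250 bases before to 50 after the start), listed 6 of the 9 genes. It had no entry for Fabp4, Fabp5 and Lpl. AGGTCA, the core site that many lipid-sensing nuclear receptors bind, was searched on both strands and stood in 14% of all 32851 listed promoters. It was found before Trem2, Cd36 and Plin2, in each case on the strand opposite to the gene, so that the gene's strand reads TGACCT. These stretches are shown because the receptors of fatty acids and sterols act through such sites, and capitals mark the match.
Trem2, plus strand, chr17:48346306-48346365: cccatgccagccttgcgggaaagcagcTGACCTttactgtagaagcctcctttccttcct
Cd36, minus strand, chr5:17836092-17836146: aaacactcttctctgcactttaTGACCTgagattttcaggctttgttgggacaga
Plin2, minus strand, chr4:86670245-86670304: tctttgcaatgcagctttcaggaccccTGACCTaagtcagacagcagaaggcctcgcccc
The match lay 68 bases before the Trem2 start, 228 before the Cd36 start and 218 before the Plin2 start. The Cd36 start listed in RefSeq lies inside the annotated span of the gene, so that its stretch precedes an internal start and not the outermost one. CACGTG, the E-box, stood in 6.02% of listed promoters and 147 bases before the start of Abca1 (chr4:53160010-53160069, minus strand), where the gene's strand reads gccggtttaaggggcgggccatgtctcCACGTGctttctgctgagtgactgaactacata. TGACTCA, the AP-1 site, stood in 4.46% of promoters and in none of these 6 genes. The listed promoters of Apoe and Gpnmb held none of these motifs.

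Libraries held 3355217 to 69765525 UMIs in skin and 28660151 to 137093834 in kidney, and 776 to 6205 and 3875 to 9248 cells were kept. Macrophages were gated by at least 3 of 12 markers (Csf1r, Adgre1, Cd68, Mrc1, Lyz2, C1qa and others, none of them among the 9 genes) with a lead of 2 over any other class, which took 9724 of 28978 skin cells and 8303 of 58140 kidney cells. All 12 markers were detected in the gated cells of every library. Of the gated skin macrophages, 20.0% fell into clusters named for dendritic cells when the cells were clustered instead. Several libraries went against their labels. The library labelled SARAWT PBS 1 had 845 CPM of human ZFYVE9, against 89.3 to 190 in the other 3 SARAWT skin libraries that list that gene, which no SARATg library lists, and the library labelled SARAWT PBS 3 had 615 CPM of Zfyve9, above the 314 and 222 CPM of the SARATg skin libraries. By the design SARAWT mice carry no human ZFYVE9, so that none of these 4 libraries should hold it. PBS 1 and PBS 3 are called the PBS libraries of high Zfyve9 below, PBS 1 for the human gene (its mouse Zfyve9 was 25.9 CPM). In kidney, the library labelled SARAWT aristolochic acid 1 had 159 CPM of Zfyve9 and the one labelled SARATg aristolochic acid had 19.4, while the other SARAWT libraries had 9.63 to 32.0 and the SARATg vehicle libraries 99.7 and 94.6. SARAWT vehicle 3 was made up like the aristolochic acid libraries, with 49.6% T, NK or innate lymphoid cells against 4.60% and 4.86% in the other vehicle libraries. Of the barcodes of SARAWT PBS 2, 55.5% also occurred in another skin library, against 17.6% and 22.1% for bleomycin 1 and 2, 7.38% for PBS 1 and at most 2.13% elsewhere.

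In both tissues macrophages held the highest mean level of Apoe and Trem2 of all classes, and endothelial cells that of Fabp4 and Cd36. Skin macrophages averaged 5008 ± 2916 CPM of Apoe (SD, n = 8) and kidney macrophages 14771 ± 7962 (n = 9). Skin keratinocytes came close with 4984 ± 2618 CPM of Apoe, and macrophages were higher than keratinocytes in only 3 of 8 libraries. Trem2 averaged 30.8 ± 23.1 CPM in skin macrophages and 161 ± 112 in kidney macrophages, and no UMI of it was seen in dendritic, mast, T, NK or innate lymphoid, mural, keratinocyte, Schwann or muscle cells of skin. Skin neutrophils averaged 11.6 ± 11.7 CPM of it.

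**Figure D1:**
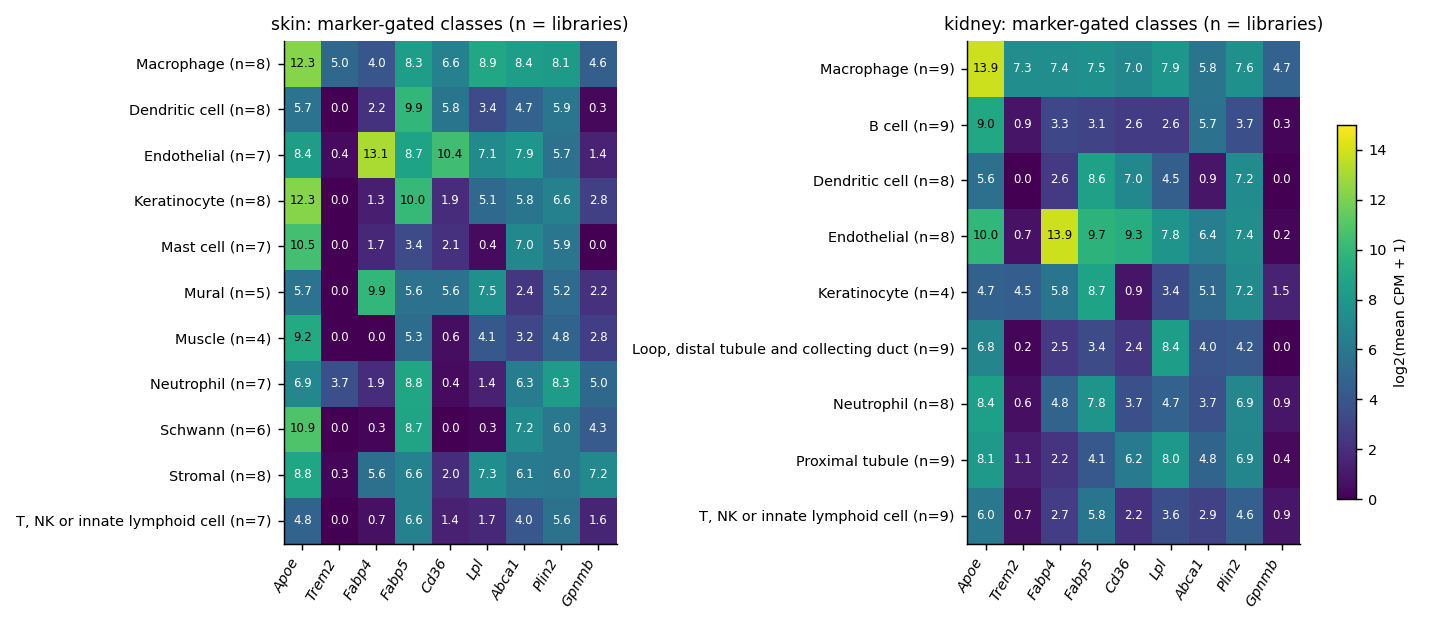
Mean level of each of the 9 genes in marker-gated classes of skin (left) and kidney (right) as log2(mean CPM + 1), with the number of libraries of at least 10 cells in brackets. Apoe and Trem2 peak in macrophages, Fabp4 and Cd36 in endothelial cells. Among the 9 kidney classes ranked, the mean of Lpl is highest in the loop, distal tubule and collecting duct.

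Fabp4, the fatty acid carrier of capillaries and fat, averaged 8654 ± 4884 CPM in skin endothelium (n = 7) and 15069 ± 12459 in kidney endothelium (n = 8), but 15.4 ± 10.1 and 164 ± 291 CPM in macrophages. Cd36 averaged 1329 ± 954 CPM in skin endothelium and 96.4 ± 82.0 in skin macrophages, and the endothelial value was the higher one in 7 of 7 libraries. Fabp5, the related carrier of epidermis, was highest in skin keratinocytes (1043 ± 609.5 CPM) and dendritic cells (987 ± 818 CPM), and macrophages ranked 6 of 11 classes. Plin2 stood at 318 ± 168 CPM in skin neutrophils and 282 ± 126 in skin macrophages, which lay within the spread of both. Among the 11 skin classes ranked, which leave out melanocytes, Gpnmb was highest in stromal cells (143 ± 102 CPM), and 13 melanocyte-gated cells of PBS 3, the only library with at least 10 of them, held 1083 CPM. Abca1 led in skin macrophages (341 ± 73.1 CPM), whereas in kidney it averaged 84.5 ± 38.6 CPM in endothelium and 53.4 ± 22.5 in macrophages. Lpl led in skin macrophages (483 ± 169 CPM), and in kidney the loop, distal tubule and collecting duct (328 ± 114 CPM) and the proximal tubule (255 ± 345 CPM) averaged more than macrophages (236 ± 84.4 CPM). The 9 kidney classes ranked leave out stromal cells, of which only SARATg vehicle 2 had at least 10. Its 38 stromal cells held 753 CPM of Lpl and 275 CPM of Abca1. No pair of neighbours in these orders passed a test against the spread between libraries (exact sign-flip permutation test, two-sided, 90 skin and 72 kidney pairs, lowest adjusted p = 0.296 and 0.141). The smallest raw p that 8 and 9 libraries allow is 0.00781 and 0.00391. It is higher for classes with fewer libraries, such as skin endothelium with 7. A lone pair at its smallest p could not pass the adjustment over so many pairs, so that the test could not decide single orders.

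The first question was whether bleomycin, which is used to model scleroderma, goes with another level of these genes in skin macrophages. Cd36, the fatty acid and scavenger receptor, stood at 232, 219.6 and 78.1 CPM in the macrophages of the libraries labelled SARAWT PBS 1, 2 and 3, and at 39.2, 40.5 and 64.8 CPM after bleomycin. All bleomycin libraries lay below all PBS libraries, with PBS 3 the nearest to them. Gpnmb stood at 3.18, 1.60 and 10.9 CPM after PBS and 20.6, 33.0 and 25.9 CPM after bleomycin. Plin2, the droplet coat, stood at 249, 165 and 248 CPM after PBS and 489, 424 and 344 CPM after bleomycin. For both genes every bleomycin library lay above every PBS library. In edgeR, the log2 fold change (bleomycin against PBS, ± SE) was -1.78 ± 0.39 for Cd36, 2.13 ± 0.57 for Gpnmb and 0.97 ± 0.23 for Plin2, with unadjusted p = 0.00201, 0.0058 and 0.00298.

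These 3 were the members without overlap between the groups, of 9 tested, where 16.4% of the 11635 genes tested had no overlap, and they were also the members with an unadjusted p under 0.05 (10.7% of genes). None of the 9 passed edgeR after adjustment over all genes (adjusted p = 0.193 for Cd36, 0.212 for Plin2 and 0.249 for Gpnmb), where 5 genes or 0.043% did (4 higher, 0.0344%, and 1 lower, 0.00859%). DESeq2 called the same 3 members (adjusted p = 0.000476, 0.0186 and 0.00587) among 268 genes or 2.3%. With the replicate number as a block, which was taken to pair the skin libraries, 118 genes passed and no member did (adjusted p = 0.103, 0.085 and 0.0635). The median log2 fold change was 0.81 over the members and 0.00 over all genes tested.

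**Figure D2:**
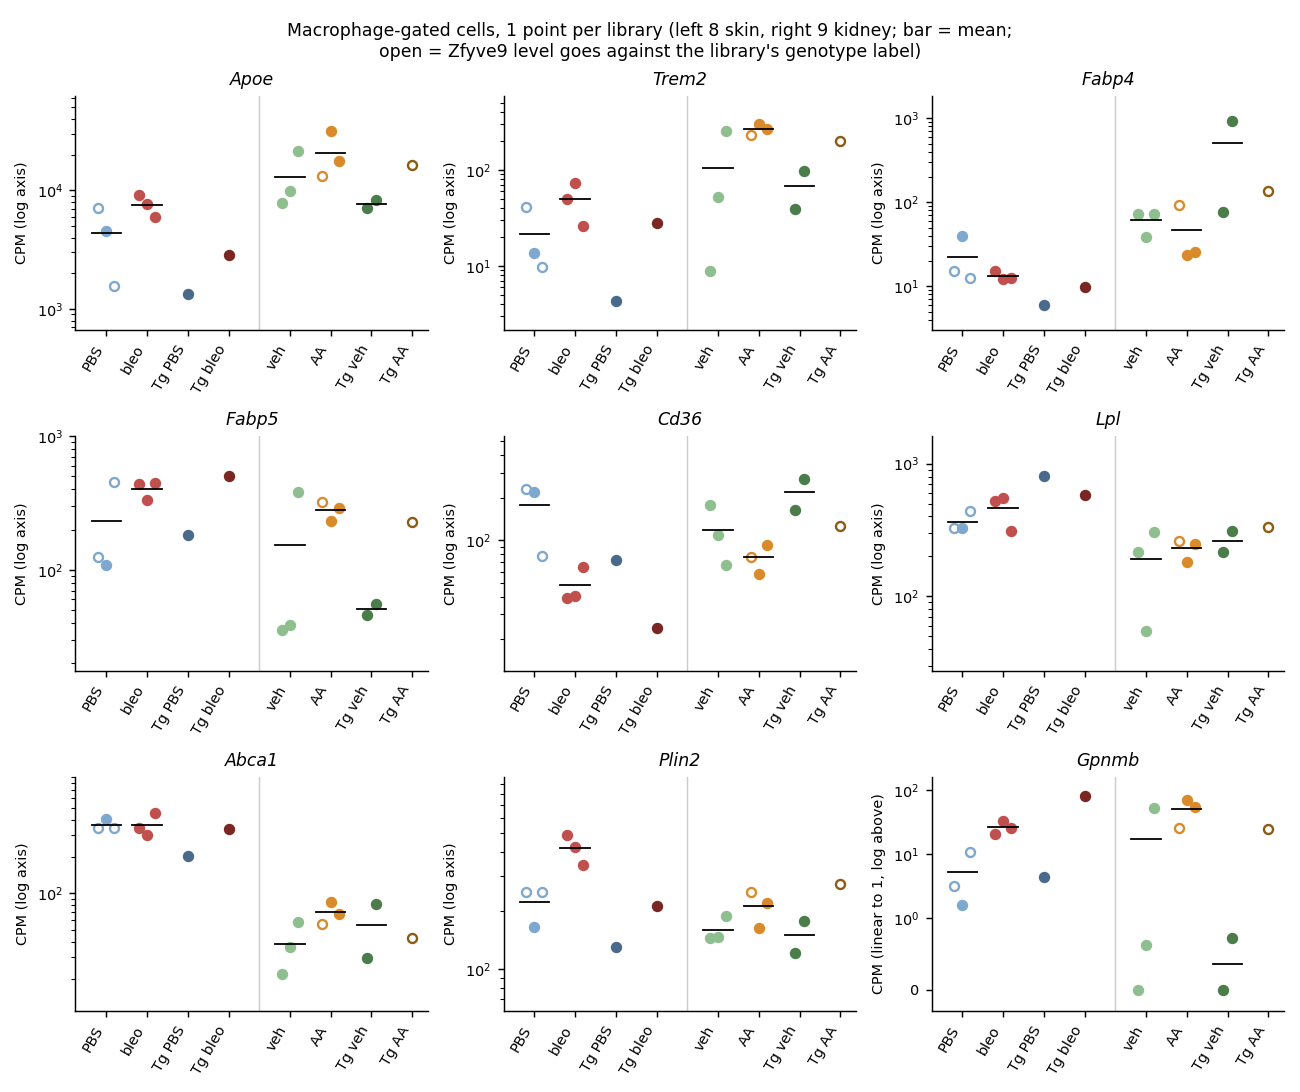
Level of each gene in macrophage-gated cells of every library in CPM, on a log axis (for Gpnmb linear up to 1), with skin groups to the left of the line and kidney groups to the right; bars are group means. Cd36 is lower and Gpnmb and Plin2 are higher in all 3 SARAWT bleomycin libraries than in the 3 PBS libraries, and Abca1 is lower in every kidney library than in every skin library.

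Much of this turned on the library labelled SARAWT PBS 3. Without it, edgeR called 385 genes (3.21%), among them Cd36 (log2 fold change -2.11, adjusted p = 0.0131), Plin2 (1.13, 0.0446), Gpnmb (3.37, 0.0104) and Fabp5 (1.91, 0.0104). Fabp5, a carrier of fatty acids, stood at 125, 109 and 457 CPM after PBS and 438, 332 and 446 CPM after bleomycin, so that PBS 3 alone lay at the bleomycin level. Depth differed in a similar way, with median UMIs per macrophage of 7621, 4805.5 and 12869 after PBS and 10291, 12157 and 11504.5 after bleomycin. The part of depth in these levels was not tested. PBS 3 and bleomycin 3 were also the SARAWT libraries counted with the shorter gene list. Between these libraries the log2 difference was -0.27 for Cd36, 0.47 for Plin2, 1.17 for Gpnmb and -0.03 for Fabp5, against -2.47, 1.16, 3.04 and 1.70 between the libraries with the longer list. Without both PBS libraries of high Zfyve9, a single PBS library was left, which was taken to vary like the bleomycin libraries. The fold changes were then -2.15, 1.37 and 4.07 for Cd36, Plin2 and Gpnmb, and no gene passed. The PBS library left, PBS 2, held 2 UMIs of Gpnmb. It also held 190 CPM of human ZFYVE9, and bleomycin 1 and 2 held 89.3 and 115, so that this fit does not leave libraries of sure genotype.

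Trem2 stood at 41.5, 13.6 and 9.73 CPM after PBS and 50.0, 72.9 and 26.0 CPM after bleomycin, with bleomycin 3 below PBS 1, and its log2 fold change was 1.26 ± 0.54 (edgeR adjusted p = 0.464). Apoe stood at 7087, 4535 and 1548 CPM after PBS and 9159.5, 7615 and 5925 CPM after bleomycin, again with bleomycin 3 below PBS 1 (0.88 ± 0.45, adjusted p = 0.532). Between libraries of the same number, Trem2 and Apoe were higher after bleomycin in 3 of 3 pairs, and with the replicate block the edgeR adjusted p was 0.121 and 0.139. The groups of Lpl, Abca1 and Fabp4 overlapped as well. Abca1, the cholesterol exporter, was nearly level at 340.0, 409.5 and 344 CPM and 345, 300.0 and 451 CPM (0.05 ± 0.21), and Lpl and Fabp4 had 0.38 ± 0.27 and -0.57 ± 0.42. In macrophages the summed CPM of endothelial markers was 48.5 to 69.7 after PBS and 39.0 to 56.7 after bleomycin, that of stromal markers 40.4 to 219.8 and 50.9 to 206, and that of keratinocyte markers 10.4 to 28.5 and 3.12 to 8.22. No endothelial, stromal or keratinocyte marker was at 0 in either group, and their part in the member levels was not tested.

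**Figure D3:**
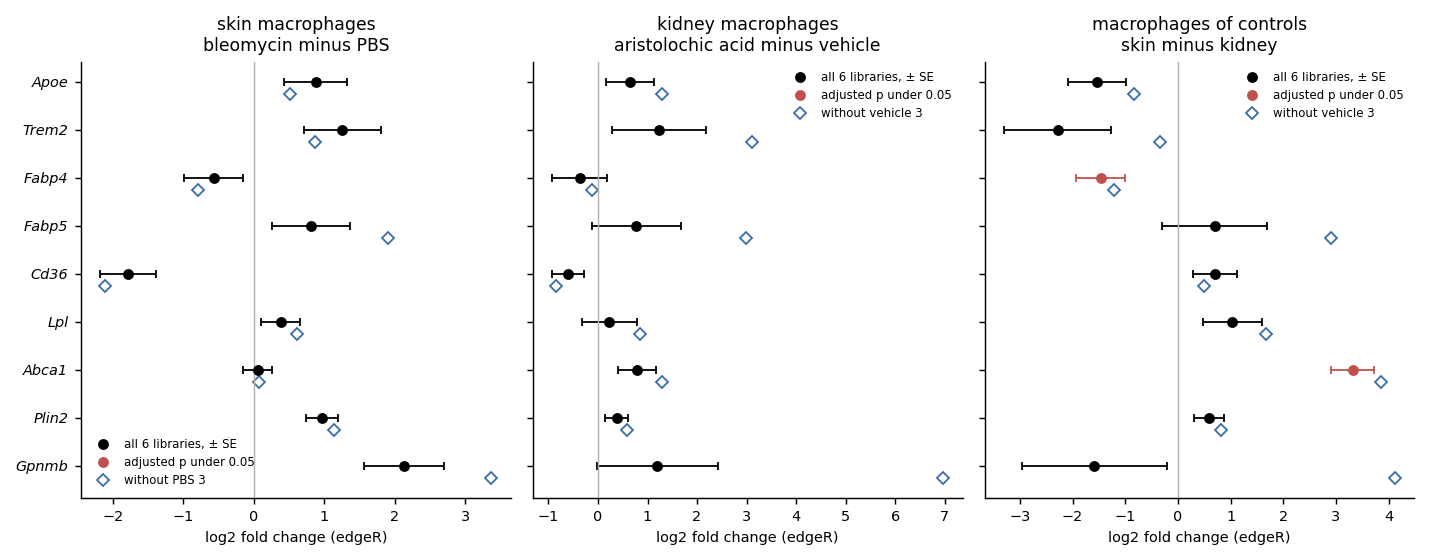
Log2 fold change from edgeR with its SE for bleomycin against PBS in skin macrophages, aristolochic acid against vehicle in kidney macrophages, and control skin against control kidney macrophages (6 libraries each; red marks an adjusted p under 0.05), with open diamonds for the fit without PBS 3 or vehicle 3. Cd36 lies at -1.78 in skin, Gpnmb in kidney moves from 1.19 to 6.97 without vehicle 3 (with 0 and 2 UMIs left in the vehicle libraries), and Abca1 lies at 3.31 in skin against kidney.

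The skin macrophages were not of one kind, and their makeup differed between libraries. Cells with at least 2 resident markers (of Folr2, Lyve1, Cd163, Timd4, Cbr2 and Gas6) made up 65.8%, 39.6% and 21.6% of macrophages after PBS and 17.8%, 23.9% and 10.2% after bleomycin. Cells with at least 2 monocyte markers (Ly6c2, Ccr2, Chil3, Plac8 and Vcan among them) made up 2.85%, 3.47% and 27.8% and 38.6%, 29.2% and 42.1%. A further set with at least 2 of Mmp12, Ear2, Ear10 and Ear1 made up 7.90%, 7.43% and 17.99% and 5.34%, 13.5% and 11.5%. None of the 9 genes is among these markers. The share of monocyte-type cells was larger in every bleomycin library than in any PBS library, with PBS 3 at 27.8% the nearest. The resident and Mmp12 Ear2 shares overlapped between the groups, and none of these shares was tested.

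Apoe and Abca1, the pair of acceptor and exporter, were highest in resident macrophages, while Lpl was highest in the Mmp12 Ear2 set. When the cells were clustered instead, 43.8% of the 1447 Mmp12 Ear2 cells of skin fell into clusters named for dendritic cells, against 12.03% of resident and 6.5% of monocyte-type cells. The largest of those clusters had Mgl2, Cd209a, Cd74 and H2-Ab1 beside Mmp12 and Ear2 among its leading genes, and the part of these cells in the values of the set was not tested. Apoe averaged 10708 ± 4598 CPM in resident cells, 3397 ± 2674 in monocyte-type cells and 153 ± 113 in Mmp12 Ear2 cells (SD, n = 8, 7 and 8 libraries), in that order in every library. Abca1 averaged 578 ± 161, 293 ± 98.4 and 160.1 ± 38.0 CPM, in the same order in every library. The means of Lpl had the opposite order, with 288 ± 90.0 CPM in resident, 422 ± 274 in monocyte-type and 749.5 ± 214 in Mmp12 Ear2 cells, and the last were the highest in 8 of 8 libraries against resident and 7 of 7 against monocyte-type cells. Trem2 averaged 55.3 ± 38.2 CPM in resident cells, more than the 8.33 ± 5.22 CPM of Mmp12 Ear2 cells in 8 of 8 libraries. Plin2 was lowest in Mmp12 Ear2 cells at 141 ± 66.7 CPM, against 320.5 ± 136 in resident and 380.1 ± 135 in monocyte-type cells.

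Within resident macrophages alone, Apoe stood at 10501, 7993 and 5169 CPM after PBS and 15207, 16123 and 15855 CPM after bleomycin. Trem2 stood at 49.6, 25.3 and 18.2 CPM and 94.5, 108 and 53.5 CPM. Plin2 stood at 322, 219 and 229.9 CPM and 485, 403 and 505 CPM. Every bleomycin library lay above every PBS library for these 3 genes. The same held for Fabp5 (104, 103 and 356 CPM against 550.0, 360.1 and 806 CPM) and Fabp4 (12.01, 13.5 and 14.8 CPM against 38.9, 15.3 and 25.8 CPM), with PBS 3 close to bleomycin 2 in both. That is 5 of 9 members without overlap, where 14.9% of the 9433 genes tested in these cells had none. The log2 fold changes were 1.04 for Apoe, 1.46 for Trem2, 0.89 for Plin2, 1.59 for Fabp5 and 1.01 for Fabp4, and no member passed edgeR (adjusted p = 0.243 to 0.462 for these 5, with 4 genes or 0.0424% called).

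Cd36 in resident cells stood at 333, 327 and 90.3 CPM after PBS and 66.4, 33.4 and 115 CPM after bleomycin, where bleomycin 3 lay above PBS 3, so its groups overlapped there. Gpnmb overlapped too, at 0.894, 3.38 and 5.15 CPM and 37.5, 4.71 and 21.5 CPM. In monocyte-type cells, with 2 PBS libraries of enough cells, Apoe stood at 1905 and 655 CPM after PBS and 7788, 4788 and 5299 CPM after bleomycin, Gpnmb at 2.02 and 8.42 CPM and 14.3, 59.3 and 15.2 CPM, and Cd36 at 92.8 and 62.7 CPM and 26.7, 45.1 and 58.4 CPM. These were the 3 members without overlap in that set, where 27.3% of 9976 genes had none. No gene passed there by edgeR, and 844 had an unadjusted p under 0.05. Both PBS libraries in that fit were the ones of high Zfyve9.

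**Figure D4:**
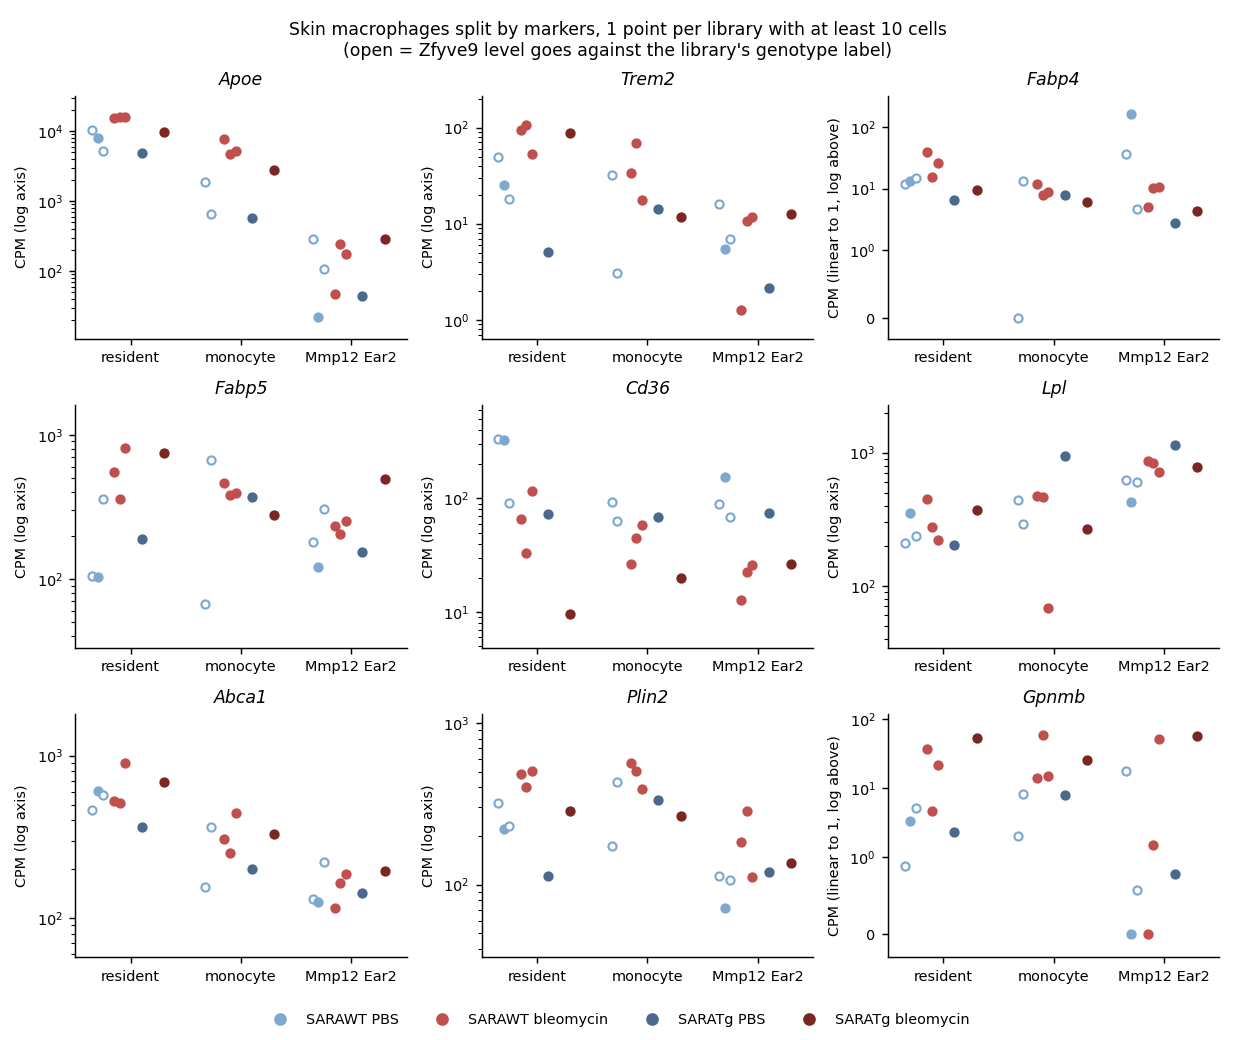
Level of each gene in CPM (log axis, linear up to 1 where a library is at 0) in skin macrophages split into resident, monocyte and Mmp12 Ear2 cells, with 1 point per library of at least 10 cells and colours for the 4 skin groups. Apoe and Abca1 are highest in resident cells and Lpl in Mmp12 Ear2 cells, and within resident cells the bleomycin points of Apoe, Trem2 and Plin2 lie above the SARAWT PBS points.

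Gpnmb UMIs were found in few macrophages, and these cells held more of the other members in skin and of 4 of the other 8 in kidney. In the 7 skin libraries with at least 10 such cells, 0.796% to 6.40% of macrophages had a Gpnmb UMI. Against the macrophages of the same library without one, they had more Trem2 (log2 difference of CPM + 1 of 2.99 ± 0.45, SD over libraries), Fabp5 (2.55 ± 0.46), Apoe (1.41 ± 0.26), Plin2 (1.05 ± 0.65), Cd36 (0.86 ± 0.67), Fabp4 (3.13 ± 1.67) and Abca1 (0.66 ± 0.41) in 7 of 7 libraries, and more Lpl (0.56 ± 0.60) in 6 of 7. In the 5 kidney libraries with enough cells, Fabp5 (2.94 ± 0.60), Trem2 (1.75 ± 0.33), Apoe (0.96 ± 0.09) and Abca1 (0.82 ± 0.36) were higher in 5 of 5, whereas Cd36 was lower in 5 of 5 (-0.88 ± 0.94). Fabp4 was higher in 2 of 5 (0.25 ± 1.69), Lpl in 3 of 5 (0.07 ± 0.54) and Plin2 in 3 of 5 (0.13 ± 0.23). Cells with a Gpnmb UMI were deeper in 11 of the 12 libraries, with median UMIs of 15764 to 23989 against 6201 to 12185 in kidney and 8230.0 to 16304 against 7574 to 12884 in skin. The part of depth in these differences was not tested, and neither was that of the resident, monocyte and Mmp12 Ear2 subsets. PBS 1 gave 12 cells with a Gpnmb UMI and SARATg PBS 19, or 0.796% and 1.62% of macrophages. These shares are near that of lymphoid cells with such a UMI, given below. Among the skin libraries these 2 had the largest Fabp4 differences, 4.51 and 5.30.

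**Figure D5:**
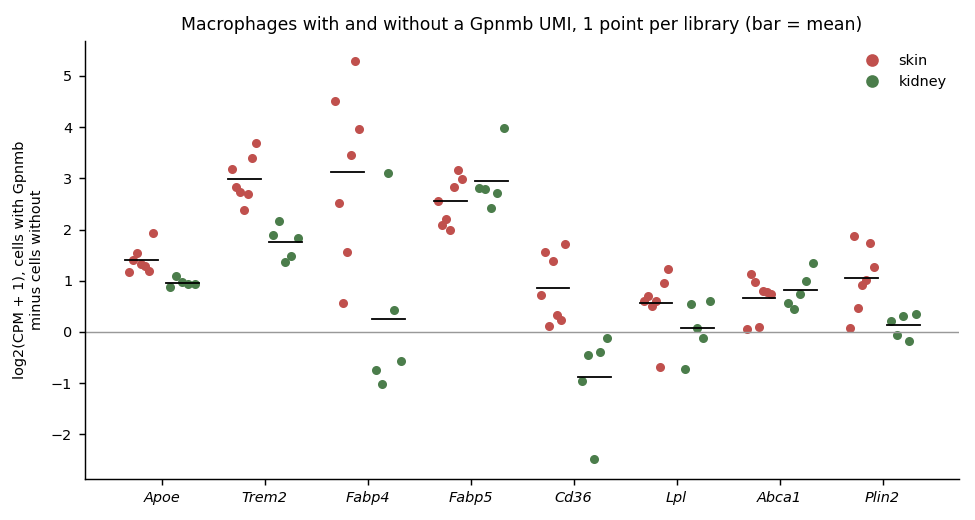
Difference in log2(CPM + 1) between macrophages with and without a Gpnmb UMI for the other 8 genes, with 1 point per library (7 skin, 5 kidney) and bars for the means. Fabp5, Trem2, Apoe and Abca1 lie above 0 in every library of both tissues, and Cd36 lies above 0 in skin and below 0 in kidney.

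The share of macrophages with at least 1 UMI gave the same order as the levels. For Cd36 it was 28.8% ± 7.92 after PBS and 13.7% ± 3.07 after bleomycin (SD, n = 3 each), and 12.9% and 4.08% after each cell was thinned to 1000 UMIs. For Trem2 it was 8.72% ± 5.65 and 17.8% ± 5.37, and 2.08% and 3.93% after thinning. For Gpnmb it was 1.65% ± 1.31 and 5.56% ± 0.915, and 0.346% and 1.38% after thinning, while 1.17% and 1.36% of T, NK or innate lymphoid cells, which should lack the gene, held a UMI of it. The Gpnmb share after PBS is thus near that background. Cd36 UMIs were in 1.87% and 0.314% of these lymphoid cells and Trem2 UMIs in 0%.

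Over all sorted skin cells, 3 members did not overlap between the groups, where 23.7% of 15264 genes did not. Cd36 stood at 122, 162 and 46.7 CPM after PBS and 26.5, 26.9 and 34.2 CPM after bleomycin, Plin2 at 127, 104 and 151 CPM and 277, 249.8 and 202 CPM, and Fabp4 at 131, 452 and 111 CPM and 49.8, 33.3 and 33.2 CPM. A level over all cells cannot tell fewer cells of a type from less RNA per cell. Endothelial cells, the main source of Fabp4, were 1.65%, 1.80% and 1.19% of PBS cells and 0.614%, 0.423% and 0.483% of bleomycin cells. The log2 fold changes were -1.74 ± 0.39 for Cd36, 1.06 ± 0.22 for Plin2 and -2.42 ± 0.55 for Fabp4 (edgeR adjusted p = 0.0898, 0.0792 and 0.0912). No gene passed edgeR, with 5 of 9 members and 2787 genes (18.3%) at an unadjusted p under 0.05, and DESeq2 called Trem2, Fabp4, Cd36 and Plin2 among 1317 genes (8.63%). With the replicate block 653 genes passed (4.28%), and Apoe was the member among them (log2 fold change 1.01, adjusted p = 0.0394), from 3127, 2229 and 1149.8 CPM after PBS and 4505, 4018 and 2659.5 CPM after bleomycin. Without PBS 3, 1012 genes passed (6.59%), among them Fabp4, Fabp5, Cd36 and Plin2 (-2.74, 1.47, -2.08 and 1.26). Without both PBS libraries of high Zfyve9, Fabp4 had -3.39. That value rests on PBS 2 as the lone PBS library, whose 452 CPM of Fabp4 was the highest of the PBS libraries.

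Dendritic cells, the other antigen-presenting class, gave no member without overlap among the 6 tested (14.3% of 7578 genes), and no UMI of Trem2 in any library. The gate took in 13.98% of the 5401 skin cells in clusters named for dendritic cells, while 35.99% were gated as macrophages, so that these values cover a small part of those clusters. Fabp5 reached 301, 544 and 2794 CPM there after PBS and 957, 640.1 and 1045 CPM after bleomycin, with the highest value in PBS 3. No gene passed edgeR in dendritic cells, 470 genes (6.2%) and no member had an unadjusted p under 0.05, and the replicate block and DESeq2 gave 10 genes each (0.132%) and no member. In stromal cells, which include fibroblasts, Fabp4 stood at 7.30, 18.6 and 10.4 CPM after PBS and 181, 124 and 10.6 CPM after bleomycin, so that bleomycin 1 and 2 were high and bleomycin 3 lay within the PBS range. Endothelial markers in stromal cells summed to 65.9 to 84.9 CPM after PBS and 26.5 to 53.2 after bleomycin, and keratinocyte markers to 48.5 to 68.4 and 28.5 to 38.4, with none at 0, and their part was not tested. Its log2 fold change was 3.36 ± 0.90 (edgeR adjusted p = 0.0977, DESeq2 0.0446), and it was the member of 8 tested with an unadjusted p under 0.05 (22.8% of 10315 genes). No member of the 8 was without overlap there (28.0% of genes were). The edgeR fit called 51 genes (0.494%), the replicate block 716 (6.94%) and DESeq2 639 (6.19%), with Fabp4 among those of DESeq2 only, and 4 genes (0.0368%) and no member passed without both PBS libraries of high Zfyve9.

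In kidney macrophages, the question was the same for aristolochic acid, and the answer depended on vehicle 3. Trem2 stood at 8.81, 52.6 and 254 CPM after vehicle and 232, 298 and 269.6 CPM after aristolochic acid. Gpnmb stood at 0, 0.630 and 51.8 CPM and 25.9, 69.2 and 54.5 CPM. Fabp5 stood at 35.2, 38.7 and 385 CPM and 323, 230.3 and 288 CPM. In each case vehicle 1 and 2 were low and vehicle 3 lay within or above the range of the aristolochic acid libraries. Median UMIs per macrophage were 5241.5, 4945.5 and 10355 after vehicle and 10668, 10370 and 13297.5 after aristolochic acid, and the part of depth was not tested. Resident cells made up 3.29%, 1.43% and 15.04% of macrophages after vehicle and 12.6%, 16.6% and 15.7% after aristolochic acid, and monocyte-type cells 20.1%, 15.9% and 26.8% and 44.3%, 24.9% and 50.7%, and the part of this makeup in the levels was not tested. Apoe followed the same pattern, at 7819, 9791 and 21416 CPM and 13189.5, 31382 and 17638 CPM. The log2 fold changes (aristolochic acid against vehicle) were 1.23 ± 0.95 for Trem2, 1.19 ± 1.22 for Gpnmb, 0.77 ± 0.90 for Fabp5 and 0.64 ± 0.49 for Apoe (edgeR adjusted p = 0.891 to 0.91).

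No member was without overlap in kidney macrophages (9.93% of 11688 genes were), none had an unadjusted p under 0.05 (601 genes or 5.14% had), and no gene passed edgeR, while 18 (0.154%) and no member passed DESeq2. Abca1 came nearest, at 21.8, 36.2 and 57.9 CPM and 56.4, 85.6 and 68.4 CPM (0.79 ± 0.38, unadjusted p = 0.0751). Without vehicle 3, edgeR called 313 genes (2.93%), among them Fabp5 (log2 fold change 2.98, adjusted p = 0.0101) and Gpnmb (6.97, 0.0285), where the latter rests on 0 and 0.630 CPM in the vehicle libraries left and depends on the prior count. Trem2 then had 3.12 (adjusted p = 0.0655). Without the library labelled SARAWT aristolochic acid 1, whose Zfyve9 level goes against its label, Trem2, Gpnmb, Fabp5 and Apoe had 1.3, 1.51, 0.64 and 0.86 and adjusted p of 0.982 to 0.989. T, NK or innate lymphoid markers summed to 6.74 to 154 CPM in vehicle macrophages and 90.5 to 171 in aristolochic acid macrophages, with none of the 9 markers at 0. Stromal markers summed to 4.45 to 16.1 and 3.11 to 4.24 CPM, with none at 0, and the part of both sets was not tested.

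Kidney macrophages shared with skin the order of Apoe, the higher Abca1 of resident over monocyte-type cells and the peak of Lpl, and not the order of all members. Resident cells held 28357 ± 10102 CPM of Apoe against 6836 ± 2596 in monocyte-type cells (higher in 8 of 8 libraries) and 146 ± 36.5 CPM of Abca1 against 20.4 ± 9.55 (8 of 8). Trem2 was at 298 ± 184 CPM against 75.9 ± 35.4 (7 of 8) and Gpnmb at 70.0 ± 71.7 against 4.68 ± 4.78 (5 of 8). Fabp4 was higher in monocyte-type than in resident cells in 8 of 8 kidney libraries, whereas resident cells were higher in 6 of 7 skin libraries. Abca1 was higher in monocyte-type than in Mmp12 Ear2 cells in 1 of 4 kidney libraries and 7 of 7 skin libraries. Lpl averaged 1284 ± 528 CPM in Mmp12 Ear2 cells and was highest there in all 4 libraries with enough of them, as in skin. In resident cells of single libraries, Trem2 stood at 67.6 and 523 CPM in vehicle 1 and 3 and at 421, 353 and 479 CPM after aristolochic acid. Vehicle 1 held 11 such cells and vehicle 2 only 8, so that the groups could hardly be compared, and no member was without overlap (18.6% of 9838 genes were). In monocyte-type cells Abca1 was the member of 8 without overlap (9.47% of 9600 genes), at 13.04, 10.3 and 18.2 CPM and 19.99, 39.9 and 31.6 CPM.

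Over all sorted kidney cells, Lpl stood at 875, 156 and 129 CPM after vehicle and 119.8, 42.6 and 84.6 CPM after aristolochic acid, the member of 9 without overlap (16.1% of 15738 genes), with log2 fold change -2.46 ± 0.95 (edgeR unadjusted p = 0.0399, adjusted p = 0.44). Apoe stood at 191, 628 and 7761 CPM and 4816, 3550.4 and 5129 CPM and Trem2 at 1.005, 2.86 and 91.8 CPM and 83.5, 35.3 and 77.6 CPM. Proximal tubule cells, which hold Lpl, were 77.2%, 71.9% and 11.4% of cells after vehicle and 5.88%, 22.5% and 7.75% after aristolochic acid. The macrophage share was 4.07%, 6.06% and 21.4% of cells after vehicle and 21.4%, 4.67% and 14.3% after aristolochic acid (difference 2.93 percentage points, exact permutation p = 0.8). No gene passed edgeR. The unadjusted p was under 0.05 for 1384 genes (8.79%), and 64 genes (0.407%) and no member passed DESeq2. Without vehicle 3, 5328 genes (33.0%) passed, among them Apoe (3.39), Trem2 (5.00), Gpnmb (6.97), Abca1 (1.38) and Lpl (-2.89). The Gpnmb value rests on 9 and 6 UMIs in vehicle 1 and 2. The skin macrophage share was 38.2%, 26.0% and 26.9% after PBS and 46.0%, 41.1% and 31.1% after bleomycin (difference 9.01 points, exact permutation p = 0.2, two-sided, where 3 against 3 libraries cannot give less than 0.1). This test did not use the replicate numbers, and between libraries of the same number the share was higher after bleomycin each time.

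Summed levels of Lpl, Cd36, Fabp4 and Plin2 in kidney endothelial cells were higher in both aristolochic acid libraries with at least 10 such cells than in any SARAWT vehicle library. Lpl, which endothelium holds at its surface for hydrolysis, stood at 84.9, 71.4 and 32.0 CPM after vehicle and 576 and 833 CPM in aristolochic acid 1 and 2. Cd36 stood at 282, 288 and 102 CPM and 387 and 3206 CPM, and Fabp4 at 7067, 8739 and 9979.7 CPM and 13232 and 44004 CPM. Aristolochic acid 2 was far above all others for Cd36 and Fabp4 and had 20 endothelial cells, while aristolochic acid 3 had 2 and was left out. Plin2 stood at 112, 131 and 107 CPM and 155 and 361 CPM. The log2 fold changes were 3.51 ± 0.42 for Lpl, 2.96 ± 0.76 for Cd36, 1.69 ± 0.45 for Fabp4 and 1.02 ± 0.38 for Plin2 (edgeR unadjusted p = 2.17e-05, 0.00389, 0.00497 and 0.0272).

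These were 4 of 7 members tested without overlap, where 21.9% of 7251 genes had none, and 4 of 7 with an unadjusted p under 0.05, where 3.3% of genes had one. No gene passed edgeR after adjustment (adjusted p = 0.158 for Lpl and 1 for the others), and DESeq2 called 11 genes (0.152%), among them Lpl (3.52, adjusted p = 3.56e-09). Without vehicle 3, 40 genes passed edgeR (0.596%), among them Lpl (3.18, adjusted p = 0.014). Without aristolochic acid 1, whose Zfyve9 level goes against its label, the log2 fold change of Lpl was 3.65 (adjusted p = 0.155) and rested on the 20 cells of aristolochic acid 2, a lone library that the fit took to vary like the vehicle libraries. The SARATg vehicle libraries had 14.7 and 131 CPM of Lpl in endothelium, and the library labelled SARATg aristolochic acid had 3.22 in 203 cells, the lowest of all. For the other 3 genes the SARATg vehicle libraries stood at 72.6 and 735 CPM of Cd36, 8927 and 20506 of Fabp4 and 114 and 178 of Plin2. SARATg vehicle 2 thus lay above SARAWT aristolochic acid 1 for all 3. The library labelled SARATg aristolochic acid had 85.9 CPM of Cd36, 8094 of Fabp4 and 208 of Plin2. T, NK or innate lymphoid markers in these cells summed to 0 to 69.0 CPM after vehicle and 126 to 346 after aristolochic acid (2 of 9 markers at 0 in each, Ncr1 and Klrb1c), and macrophage markers to 71.4 to 566 and 94.3 to 841, and their part was not tested.

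In the proximal tubule, the target of aristolochic acid, Lpl stood at 947, 164 and 24.4 CPM after vehicle and 9.16, 29.7 and 6.74 CPM after aristolochic acid. Fabp5 stood at 32.4, 42.9 and 5.97 CPM and 6.17, 5.02 and 5.11 CPM. Vehicle 3 lay within the aristolochic acid range for both genes. T, NK or innate lymphoid markers in these cells summed to 1.21 to 17.1 CPM after vehicle and 38.6 to 75.7 after aristolochic acid, and macrophage markers to 32.1 to 232 and 89.3 to 324, with none at 0, and their part was not tested. The log2 fold changes were -4.84 ± 1.41 for Lpl and -2.52 ± 0.66 for Fabp5 (edgeR unadjusted p = 0.0112 and 0.00659, adjusted p = 0.495 for both), 2 of 8 members at that level against 8.9% of 11748 genes. No gene passed edgeR, and DESeq2 called 73 (0.621%), among them Fabp5 (adjusted p = 0.0187). Without vehicle 3, edgeR called 400 genes (3.31%), among them Lpl (-5.39, adjusted p = 0.0441) and Fabp5 (-3.00, 0.0105). In the SARATg vehicle libraries proximal tubule cells held 541 and 565 CPM of Lpl, and in the library labelled SARATg aristolochic acid 10.7.

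Without a drug, Abca1 was the member that differed most between skin and kidney macrophages. It stood at 340.0, 409.5 and 344 CPM in SARAWT PBS skin and 21.8, 36.2 and 57.9 CPM in SARAWT vehicle kidney. Every skin library lay above every kidney library, with a log2 fold change of 3.31 ± 0.41 (edgeR adjusted p = 0.00101), which held without each library. Without both PBS libraries of high Zfyve9 the log2 fold change was 3.44, with PBS 2 left as the lone skin library. Resident cells, the subset with more Abca1 in both tissues, were 65.8%, 39.6% and 21.6% of macrophages in PBS skin and 3.29%, 1.43% and 15.04% in vehicle kidney, and their part was not tested. Proximal tubule markers in macrophages summed to 1.27 to 4.53 CPM in skin (5 of 8 at 0) and 38.6 to 519 in kidney (none at 0). Stromal markers summed to 40.4 to 219.8 and 4.45 to 16.1 CPM (none at 0). Keratinocyte markers summed to 10.4 to 28.5 (none at 0) and 6.22 to 9.36 CPM (2 of 7 at 0). T, NK or innate lymphoid markers summed to 94.7 to 374 and 6.74 to 154 CPM (none at 0), and the part of these sets was not tested. Tissue cannot be told apart from the experiment, the route of injection and the preparation of the libraries. Fabp4 stood at 15.1, 39.3 and 12.7 CPM in skin and 73.1, 38.7 and 73.3 CPM in kidney (-1.46 ± 0.46, adjusted p = 0.0396), with PBS 2 above vehicle 2. That call was lost without PBS 1, PBS 3, vehicle 1 or vehicle 3 (adjusted p = 0.0997 to 0.120). Among the 9 members 1 was thus called higher in skin (18.1% of 11594 genes) and 1 lower (14.5%), and 3 did not overlap (50.5%), so that the members' counts lay near those of genes at large.

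Apoe stood at 7087, 4535 and 1548 CPM in skin and 7819, 9791 and 21416 CPM in kidney, without overlap (-1.54 ± 0.55, edgeR adjusted p = 0.0625), and passed only without PBS 1 (-1.98, adjusted p = 0.0465) among the fits that left out a library. Lpl did not overlap either, at 328, 325 and 437 CPM and 217, 55.1 and 305 CPM (1.03 ± 0.56, adjusted p = 0.181). Trem2 had -2.28 ± 1.02 (adjusted p = 0.116), and -0.35 without vehicle 3, which alone held 254 CPM. Gpnmb had -1.58 ± 1.38 (adjusted p = 0.4) and 4.12 (adjusted p = 0.0441) without vehicle 3, where the kidney libraries left held 0 and 2 UMIs of it, so that this value depends on the prior count and is no bound. Fabp5 and Plin2 passed without vehicle 3 as well (2.91, adjusted p = 0.0227, and 0.82, adjusted p = 0.0488).

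In endothelial cells Cd36 was the member with the widest difference between the tissues. It stood at 2593, 2724 and 1186 CPM in skin and 282, 288 and 102 CPM in kidney (3.47 ± 0.45, edgeR adjusted p = 0.000539), without overlap, and passed without each library in turn. Abca1 stood at 263, 126 and 267 CPM and 65.6, 117 and 82.1 CPM (1.55 ± 0.38, adjusted p = 0.0185), and Lpl at 210.1, 467 and 70.5 CPM and 84.9, 71.4 and 32.0 CPM (2.06 ± 0.57, adjusted p = 0.033). The Abca1 call was lost without PBS 1, PBS 3 or vehicle 1 and the Lpl call without PBS 1, PBS 2 or any of the vehicle libraries. These 3 members of 7 were called higher in skin, where 8.72% of 6173 genes were, and 5 of 7 did not overlap, where 35.2% of genes did not. PBS 2 gave 14 endothelial cells. Stromal markers in endothelial cells summed to 31.6 to 149 CPM in skin (1 of 8 at 0) and 0 to 4.76 in kidney (5 of 8 at 0), and proximal tubule markers to 0 to 4.04 (7 of 8 at 0) and 26.02 to 430.5 (none at 0), and their part was not tested.

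The drug effects themselves were compared between the tissues in macrophages of the 12 SARAWT libraries, although the drugs differ. No member passed the interaction (edgeR adjusted p = 0.77 to 1, log2 differences of -1.14 to 0.89, of which Cd36 had the lowest), where 5 of 13103 genes did (0.0382%). Cd36 thus had -1.78 in skin and -0.60 in kidney, without a difference that passed (-1.14 ± 0.54). In simulated data the interaction fit found 8.5% of planted differences of 2 log2 units. The drug fits of skin and kidney macrophages found 71% and 66% of planted changes of that size. The interaction fit thus missed most differences of this size there, so that it could not decide whether the drug effects were alike.

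The SARATg libraries gave single values. In skin macrophages the SARATg PBS and SARATg bleomycin libraries held 73.1 and 24.1 CPM of Cd36, 4.49 and 80.9 of Gpnmb, 4.29 and 28.1 of Trem2, and 1329 and 2866 of Apoe. With 1 library each there was no test. The bleomycin library had the lower Cd36 and the higher Gpnmb, the directions of the SARAWT groups that did not overlap, and also the higher Trem2 and Apoe, for which the SARAWT groups overlapped. Its Apoe lay below all 3 SARAWT bleomycin libraries. Both SARATg skin libraries were counted with the shorter gene list, which among SARAWT skin libraries only PBS 3 and bleomycin 3 share. PBS 3 and bleomycin 3 held 1548 and 5925 CPM of Apoe, the lowest of their groups. Genotype thus cannot be fully told apart from the gene list. In the SARATg PBS and bleomycin libraries Plin2 was 131 and 211 CPM, Fabp5 183 and 500.2, and Lpl 807 and 578. The SARATg PBS value of Lpl lay above those of all other skin libraries. The SARATg PBS library also had the largest share of Mmp12 Ear2 cells, 28.4% of macrophages against 5.34% to 20% in the other skin libraries, whose part was not tested. In kidney, SARATg vehicle 2 held 933 CPM of Fabp4 in macrophages, against 23.5 to 137 in the other kidney libraries. Endothelial markers in macrophages summed to 35.0 and 95.6 CPM in the SARATg vehicle libraries and to 16.7 to 72.0 CPM in the SARAWT kidney libraries, none of the 8 was at 0, and their part was not tested.

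Other lipid genes of the same pathways were counted by list. In skin macrophages none of the genes tested from 6 lists passed edgeR after bleomycin (0.043% of all genes did), and in kidney macrophages none did after aristolochic acid (0.0% of all genes). At the lowest, the adjusted p in these skin lists was 0.0742, in the lysosome list. The 12 lysosome and lipid-associated macrophage genes had a median log2 fold change of 0.51 in skin macrophages, the TREM2 list 0.50, uptake 0.45, droplet 0.30, efflux 0.18 and PPAR and lipase partners 0.17, beside 0.00 over all genes. In kidney macrophages these medians were 0.38, 0.10, 0.57, -0.12, 0.14 and -0.16. Among the 4 genes of the TREM2 adaptor and its signal the values ran from 0.34 to 0.60 in skin macrophages.

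Between the tissues, 4 of 7 genes of cholesterol efflux and LXR targets passed in macrophages, all higher in skin (18.1% of all genes were), with a list median of 1.10 beside -0.05 over all genes. Abcg1, the partner of ABCA1 in export, stood at 87.6, 172 and 173 CPM in skin and 29.5, 40.6 and 29.1 CPM in kidney (2.28 ± 0.35, edgeR adjusted p = 0.00239). Mylip, which degrades the LDL receptor, stood at 351, 224 and 87.6 CPM and 27.5, 33.4 and 11.4 CPM (3.33 ± 0.52, adjusted p = 0.00246). Pltp and Srebf1 had 1.43 ± 0.41 and 1.10 ± 0.36. Neither Abcg1 nor Mylip overlapped between the tissues. Of 9 droplet genes, Dgat1, Dgat2 and Hilpda, the first 2 of which make triglyceride, were higher in skin (1.53, 1.82 and 3.62) and G0s2, an inhibitor of lipolysis, was lower (-3.01). Of 12 lysosome genes Npc1 and Ctsb were higher and Acp5 lower (1.84, 1.17 and -3.02), counts near the 18.1% of all genes higher and 14.5% lower. Of 4 genes of the TREM2 adaptor and signal, Tyrobp, the adaptor itself, was lower in skin at 953, 941 and 1483 CPM against 2765, 3029.6 and 2959 CPM (-1.22 ± 0.30, adjusted p = 0.0146), and Syk was higher (0.94). Scarb1 was the only one of 7 uptake receptors called (-1.27), and Fabp3 of 5 PPAR and lipase partners (-1.89). In endothelial cells Scarb1 and Stab1 of 3 uptake receptors tested, Mylip of 4 efflux genes, Lgals3 of 9 lysosome genes and Angptl4 of 3 PPAR and lipase partners were called, all higher in skin (2.02, 1.21, 2.10, 3.61 and 3.74), where 8.72% of all genes were, and none of 6 droplet genes or the 1 gene tested of the TREM2 list was. In addition, in skin stromal cells Mgll of the droplet list was called lower after bleomycin (-2.14, adjusted p = 0.044), where 16 of 10315 genes (0.155%) were.

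Across the 20 classes of both tissues, each gene's level was set beside that of 14055 genes as a description, where classes share libraries and depth. Fabp4 was most like Pcdh12 (Pearson r = 0.897), and Cd36 like Cd300lg (0.871), both genes of endothelium. Trem2 was most like Alox15 (0.834), Gpnmb like Steap3 (0.881), Lpl like Hotairm1 (0.853), Plin2 like Creg1 (0.806), Fabp5 like Anxa2 (0.786), Abca1 like Mfsd11 (0.744) and Apoe like Mmp13 (0.691). Among the members, the closest pairs were Fabp4 and Cd36 (0.729), Cd36 and Lpl (0.645), Fabp5 and Plin2 (0.631) and Apoe and Abca1 (0.613), and the farthest was Cd36 and Gpnmb (-0.252).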

How the data were processed

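Count matrices of 17 libraries were analysed as deposited. Per the file headers and the submitters' processing notes, the authors aligned 10x Genomics 3′ reads to mm10 and counted UMIs per gene and cell with Cell Ranger (3.0.2 in kidney, 3.1.0 and 4.0.0 in skin), so that the values are raw counts. Skin libraries came with a longer or a shorter gene list, and the 30406 shared identifiers were used. The 9 genes and all lists were chosen with earlier results of these data known. Labels of replicates do not tie a library to an animal, so that p-values measure the spread between these libraries, which may be technical.

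Barcodes entered with 200 or more genes and no more than 20% of UMIs from mitochondria, predicted doublets (0.8% per 1000 cells) were removed, and cells were gated into classes by at least 3 markers with a lead of 2 (scanpy 1.11.5, Python 3.11.15). Counts were summed per library and class of at least 10 cells. edgeR 4.0.16 (filterByExpr, TMM, quasi-likelihood test, R 4.3.3) was fitted across all genes of a class with Benjamini-Hochberg adjustment, and every adjusted p is from edgeR unless DESeq2 1.42.0 is named. Named were all 9 members and, per list and comparison, up to 4 called genes of lowest p. Single values were compared by exact permutation. The scripts were tested on simulated data with 200 planted changes per fit, each of 2 log2 units. Of these, 8.5% were found for the difference of drug effects, 22.5% in kidney endothelial cells and 55.5% to 73% in the other fits. Deviations of skin libraries of the same number had r = 0.429 to 0.678 in macrophages and 0.238 to 0.66 over all cells. They had 0.131 to 0.529 in dendritic and 0.246 to 0.434 in stromal cells. Between libraries of other numbers r was -0.592 to 0.45, -0.545 to 0.379, -0.397 to 0.276 and -0.293 to 0.0551. These ranges overlapped except in stromal cells, and in macrophages PBS 1 with bleomycin 2 (0.45) exceeded PBS 2 with bleomycin 2 (0.429). The number was taken to pair the skin libraries, although it also follows the gene list and does not clearly part numbers 1 and 2. In kidney it was not taken to pair them (r = -0.286 to 0.208 for the same number in macrophages). Alternatives were DESeq2, other size factors, filters, gates, clusters, doublets kept, thinning, blocks and each library left out. Leaving out shared barcodes, both PBS libraries of high Zfyve9, and the subsets of macrophages taken alone were added after the data were seen. SARATg groups of 1 library were not tested. A list of sterol synthesis genes, with an item that is not reported here, was left out for that reason and not for its values.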

Additional observations from a re-analysis of the deposited data

Results flagged for a closer look

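In macrophages of the library labelled SARATg bleomycin, which entered no test, Fabp5 stood at 500.2 CPM, above the 109.0 to 457 CPM of the 4 PBS libraries of skin. Gpnmb stood there at 80.9 CPM, above the 1.60 to 10.9 CPM of the same 4 libraries. In macrophages of the library labelled SARATg aristolochic acid, whose Zfyve9 level goes against its label, Lpl stood at 332 CPM, above the 55.1 to 312 CPM of the 5 vehicle libraries. Plin2 stood there at 274 CPM, above the 122 to 188 CPM of the same 5 libraries. Each is 1 library, so that none of these differences has a replicate check.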

How the results depend on the processing

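The number of genes called moved with the test more than the direction of the members did. Over other settings 552 member changes kept direction and side of the threshold, 28 passed only under the alternative, 8 no longer passed and 8 turned, and over fits without 1 library these were 301, 21, 12 and 9.

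DESeq2 called 1317 genes in all skin cells (0 in edgeR), 268 in skin macrophages (5), 10 in dendritic cells (0), 639 in stromal cells (51), 64 in all kidney cells, 18 in kidney macrophages, 11 in endothelial cells, 73 in proximal tubule (0 each in edgeR) and 67 for the difference of drug effects (5). Without a filter on low counts these were 392 in all skin cells, 103 in skin macrophages, 128 in dendritic, 759 in stromal and 151 in kidney endothelial cells, 1481 between endothelial cells of the tissues (849) and 12 for the difference. The replicate block gave 653 in all skin cells, 118 in skin macrophages, 10 in dendritic, 716 in stromal and 205 in kidney endothelial cells, where numbers do not pair libraries, and 0 in the other kidney comparisons. RLE size factors gave 91 and all groups in 1 fit 83 in all skin cells. Keeping doublets gave 2 in skin macrophages, 77 in stromal cells and 1 for the difference, clusters 0, 0 and 0, leaving out shared barcodes 2, 0 and 1, and stricter cells 1 for the difference. Without both PBS libraries of high Zfyve9 the counts were 22, 0 and 4 in all skin cells, macrophages and stromal cells, 1113 and 33 between tissues in macrophages (3783) and endothelial cells, and 0 for the difference. Monocyte macrophages alone gave 0.

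Leaving out 1 library gave 0 to 1012 genes in all skin cells, 0 to 385 in skin macrophages, 0 to 0 in dendritic and 0 to 42 in stromal cells, 0 to 5328 in all kidney cells, 0 to 313 in macrophages, 0 to 40 in endothelial cells, 0 to 400 in proximal tubule, 2669 to 3558 and 391 to 1120 between tissues, and 0 to 49 for the difference. The highest counts of the drug comparisons came without PBS 3 in skin, apart from dendritic cells, and without vehicle 3 in kidney. The macrophage share differed by 5.71 to 13.2 points in skin and -1.03 to 8.38 in kidney, where -0.285 was without vehicle 1.

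Fabp4 in skin macrophages turned to 1.01 in resident cells, and left-out libraries gave -0.85 to 0.01 (0.00834). In dendritic cells Apoe turned to 1.53 without both high Zfyve9 libraries (left out -0.97 to 0.23) and Lpl to 0.10 by clusters. In kidney macrophages Fabp5 turned to -0.62 and Gpnmb to -0.63 in resident cells, and Cd36 to 0.58 in monocyte cells. Without 1 library Cd36 ranged from -1.87 to 0.44 in all kidney cells, Fabp5 from -0.12 to 1.79 in endothelial cells, and in proximal tubule Trem2 from -0.57 to 1.43, Fabp4 from -0.81 to 1.11 (-0.33 by clusters) and Cd36 from -2.08 to 0.44. Between tissues Fabp5 ranged from -0.45 to 2.91 (-0.50 without both high Zfyve9 libraries) and Gpnmb from -2.88 to 4.12, the last against 0 and 2 UMIs in kidney. With a pseudocount of 10 the Plin2 difference of neutrophils and macrophages in skin was 0.00164. The cause of these changes was not tested. Of 45 shares of cells with a UMI, 38 moved when cells were thinned, so that shares depend on depth.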
